A study of Homo sapiens with 12 samples.

Results

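The genes described here were 6 matrix metalloproteinases (MMP1, MMP2, MMP3, MMP9, MMP10 and MMP14) and the 4 tissue inhibitors of metalloproteinases (TIMP1, TIMP2, TIMP3 and TIMP4), 10 of the 60504 genes in the deposited tables. They were picked out by gene name, and each name matched 1 entry. The 12 RNA-seq libraries came from T24 cells, a long-established line from a human bladder carcinoma. In the knockout comparison, 2 libraries labelled U11 knockout, from a clone selected after CRISPR/Cas9 editing of the gene for U11 small nuclear RNA, were set against 2 untreated T24 controls. In the overexpression comparison, 6 libraries labelled U11 overexpression, from T24 cells stably transfected with a pcDNA-U11 plasmid and selected as single clones, were set against 2 untreated T24 controls. These 6 libraries carried the line labels 79, 86 and 87, with 2 libraries each, and what the line labels stand for is not given in the sources used here. The sources do not say that libraries of 1 condition came from separate cultures, so P-values measure the spread between libraries, which may be technical.

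MMPs are zinc-dependent proteases that cut collagens, laminins, proteoglycans and other matrix and cell surface proteins, and most are made as inactive proenzymes. TIMPs bind the active site of MMPs and block them, and TIMP2 also forms a bridge by which MMP14 at the cell surface activates proMMP2. In bladder cancer this protease system is studied mainly for its part in invasion through the basement membrane.

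U11, the RNA of the minor spliceosome that recognises the start of U12-type introns, measured 31.6 and 37.4 TPM (a transcript level scaled by gene length and to a common total per library) under the knockout label, above the 21.4 and 23.8 TPM of the controls. The U11 measured in these libraries therefore went against the knockout label. By real-time PCR, the paper reports decreased U11 in its knockout cell line and increased U11 in its overexpression cell line. U11 has no polyA tail, and the sources disagree on whether polyA RNA was selected, which bears on its measured level. Every direction given for the libraries labelled knockout depends on the label. Under the overexpression design, U11 was at 0.03 and 0.62 TPM in the controls, at 0.18 and 0.41 TPM in line label 79, at 3.98 and 3.72 TPM in line label 86 and at 61.9 and 53.6 TPM in line label 87, so line label 79 lay within the range of its controls. The library numbers in the labels fell into 3 runs, called library sets here. Set 1 held the knockout comparison, and sets 2 and 3 each held 1 overexpression control and 1 library of each line label. Aligned bases ranged from 9.07 to 15.3 gigabases per library, and all 12 libraries had the keratins KRT7, KRT8, KRT18 and KRT19 at 90.3 TPM or more. KRT19 was nevertheless lower under the knockout label, at 92.8 and 90.3 TPM against 158 and 151 TPM in the controls (difference -0.74, limma, adjusted P = 0.0194). KRT18 was also lower (-0.46, limma, adjusted P = 0.0448), whereas KRT7 (-0.01, limma, adjusted P = 0.958) and KRT8 (0.06, limma, adjusted P = 0.628) hardly differed. The epithelial adhesion gene EPCAM, too low to be tested there, was at 0.15 and 0.09 TPM against 0.82 and 1.23 TPM. The urothelial marker GATA3 went the other way (0.75, limma, adjusted P = 0.0553), and PPARG was lower (-0.42, limma, adjusted P = 0.115). The part of these marker differences in the TIMP1 and TIMP3 values was not tested. The epithelial cadherin CDH1 stayed at or below 0.15 TPM and the uroplakins UPK1A, UPK1B, UPK2 and UPK3A at or below 0.44 TPM, so these defining epithelial and urothelial markers were near 0 although GATA3 (2.38 TPM or more) and PPARG (18.9 TPM or more) were present. Of 7 fibroblast markers, COL1A2 and COL3A1 were at or below 0.05 TPM, DCN, LUM, PDGFRA and THY1 at or below 0.28 TPM, and PDGFRB at 0.48 to 1.59 TPM. In bulk RNA, fewer cells with a transcript and less transcript per cell cannot be told apart.

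Across the 10 genes, 3 levels of abundance were seen. TIMP1, TIMP2 and MMP14 were abundant, with lowest and highest libraries of 174 and 669 TPM for TIMP1, 17.3 and 174 TPM for TIMP2, and 54.5 and 155 TPM for MMP14. TIMP3 ranged from 0.00 to 7.48 TPM and TIMP4 from 0.39 to 1.53 TPM. The secreted MMP1, MMP3, MMP9, MMP10 and MMP2 stayed under 1.30 TPM in all 12 libraries, MMP2 at or below 0.04 TPM. MMP14 made up 97.9% to 99.7% of the summed TPM of the 6 MMPs. In the test across all genes, which kept a gene if 2 or more libraries of a comparison had it at 1 TPM or above, 4 of the 10 genes were tested in the knockout comparison (MMP14, TIMP1, TIMP2 and TIMP3) and 7 of the 10 in the overexpression comparison (these 4, TIMP4, MMP1 and MMP3). MMP1 and MMP3 passed that filter through the 2 libraries of line label 87 alone, so a test of them after the filter draws on values that had to be high there, and the fit without the filter, over 32915 genes in the overexpression comparison, is given beside their main results.

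**Figure D1:**
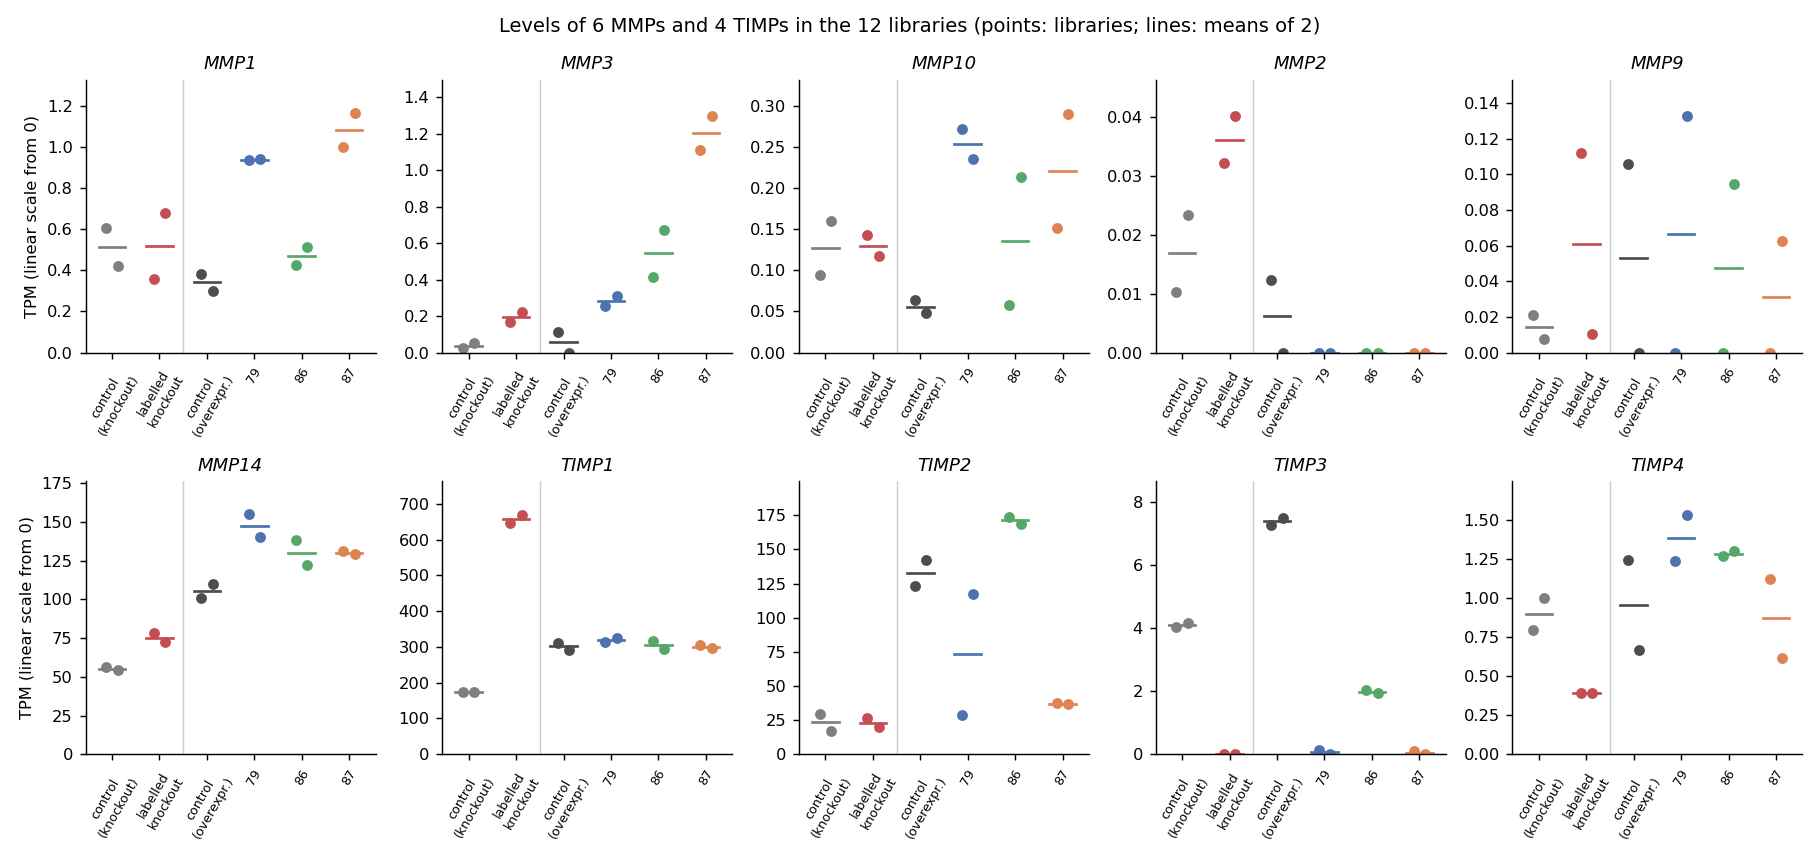
TPM (vertical axes, linear and starting at 0) of each of the 10 genes in the 12 libraries, with points for libraries and short lines for the means of 2 libraries; 79, 86 and 87 are the line labels of the overexpression libraries. TIMP1 stands at 647 and 669 TPM in the libraries labelled knockout, TIMP3 is near 0 in the libraries labelled knockout and in line labels 79 and 87, and MMP3 reaches its highest values in line label 87.

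The genes lie on 8 chromosomes in hg38, and 3 of them are neighbours. MMP10 (ENSG00000166670; chromosome 11, 102770503 to 102780628), MMP1 (ENSG00000196611; 102789920 to 102798160) and MMP3 (ENSG00000149968; 102835801 to 102843803) sit side by side on the minus strand within a cluster of 9 MMP genes that spans 435 kb. MMP14 (ENSG00000157227) lies on chromosome 14 from 22836557 to 22849027, MMP2 (ENSG00000087245) on chromosome 16 from 55389700 to 55506691 and MMP9 (ENSG00000100985) on chromosome 20 from 46008908 to 46016561. TIMP1 (ENSG00000102265; chromosome X, 47582313 to 47586789), TIMP3 (ENSG00000100234; chromosome 22, 32801701 to 32863043) and TIMP4 (ENSG00000157150; chromosome 3, 12153051 to 12159351) each overlap a synapsin gene on the other strand, namely SYN1, SYN3 and SYN2. The overlapping synapsin genes reached at most 0.05, 0.09 and 0.21 TPM. TIMP2 (ENSG00000035862; chromosome 17, 78852977 to 78925387) overlaps CEP295NL on its own strand, which reached at most 0.73 TPM. WTAPP1, on the opposite strand to MMP1, MMP3 and MMP10, reached at most 0.46 TPM. How the counting treated strand is not given in the sources used here, so reads of overlapping genes may have been shared.

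Since U11 takes part in splicing U12-type introns, the introns of the 10 genes were read for such starts in the GENCODE release 44 annotation of hg38. None of their 107 introns began with ATATCCTT or GTATCCTT. Of the 19052 protein-coding genes with at least 1 intron of at least 60 bases, 567 (2.98%) held such an intron with such a start. At that share, finding none among 10 genes is ordinary. No other form of U12-type intron was searched for.

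RefSeq promoter windows (250 bases before the start and 50 after it, GRCh38.p14) were matched for 5 of the 10 genes, namely MMP10, MMP14, TIMP1, TIMP3 and TIMP4. TIMP3 had 26 CpG dinucleotides in the 250 bases before its start, and 80.4% of 35116 promoters had fewer. The corresponding number was 12 for TIMP1, 11 for TIMP4, 7 for MMP14 and 2 for MMP10. The 120 bases just before the deposited TIMP3 entry, at chr22:32801581-32801700 on the plus strand, are shown because TIMP3 fell in both comparisons, with each of their 10 CpG dinucleotides in capitals. DNA methylation was not measured in this series.

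TIMP3 upstream stretch: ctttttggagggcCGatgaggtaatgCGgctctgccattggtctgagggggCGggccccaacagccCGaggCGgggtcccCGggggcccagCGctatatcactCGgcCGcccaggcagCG

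The AP-1 motif TGAGTCA, searched on both strands in the 250 bases before the start, was in none of the 5 windows and in 4.20% of all 35116 windows. The TATA motif TATAAA was found in the MMP10 window, 31 bases before the start, and in 10.7% of all windows. The absence of a match says only that these letters are not in these windows.

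The knockout comparison asked which genes differed when U11 was edited. TIMP1, a secreted inhibitor of most MMPs that also has growth factor activity, stood at 174 and 175 TPM in the controls, against 647 and 669 TPM under the knockout label. Both libraries labelled knockout lay far above both controls, and the difference between the means was 3.77-fold. TIMP1 was up-regulated, with a difference of 1.91 in log2(TPM + 1) (standard error 0.07, limma, adjusted P = 0.00276). TIMP3, the inhibitor that binds to the extracellular matrix and also blocks several ADAM proteases, went the other way. Its levels were 4.04 and 4.14 TPM in the controls, against 0.01 and 0.01 TPM under the knockout label, which corresponded to a mean coverage of 42.5 and 0.12 reads per base. TIMP3 was down-regulated by the same test (difference -2.33, standard error 0.12, adjusted P = 0.00564), and because 1 TPM was added before taking logs, this value understates the change of so low a gene. TIMP3 passed the filter through the controls alone, where it was high. Without the filter it also passed an unadjusted P under 0.05 with a change of 1.5-fold or more in limma. In that fit of 42020 genes, 17 were called higher and 9 lower at an adjusted P under 0.05 with that change. The adjusted P of TIMP3 in that fit is not given here.

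TIMP1 was the 1 gene of the 10 called higher, and TIMP3 the 1 gene called lower, at P under 0.05 with a change of 1.5-fold or more. Of all 14356 genes tested, 8.61% were called higher and 3.15% lower by that rule. At an adjusted P under 0.05, which TIMP1 passed, 6.85% were called in either direction. The libraries of the 2 groups did not overlap for TIMP1, TIMP3 and MMP14, 3 of the 4 genes tested, but the same was true of 60.2% of all genes tested. TIMP3 also passed the adjusted P of limma, but it entered the test through the controls alone. Its calls, adjusted or not, and its lack of overlap are therefore not read against these shares. The median difference of all genes tested was 0.11 in log2(TPM + 1), and median ratio scaling moved it to -0.02. With that scaling TIMP1 still differed by 1.76 and TIMP3 by -2.39.

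MMP14, the membrane-type protease also called MT1-MMP, measured 56.2 and 54.5 TPM in the controls, against 78.3 and 72.4 TPM under the knockout label. Its groups did not overlap, but the difference of 0.44 (standard error 0.09, limma, adjusted P = 0.0571) was a 1.35-fold change and did not pass the fold threshold. With median ratio scaling the difference was 0.29. TIMP2, the inhibitor that takes part in proMMP2 activation, measured 29.5 and 17.3 TPM in the controls, against 26.3 and 20.0 TPM under the knockout label. The knockout values lay inside the range of the controls (difference 0.02, standard error 0.28, limma, adjusted P = 0.969), and the sign of this difference was negative with FPKM, median ratio scaling or quantile normalization.

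The remaining 6 genes were under the filter in this comparison. TIMP4, the inhibitor best known from heart muscle, measured 0.79 and 1.00 TPM in the controls, against 0.39 and 0.39 TPM under the knockout label, and the groups did not overlap. Without the filter its difference was -0.45 (standard error 0.14, limma, adjusted P = 0.294), a value that did not pass. MMP3, or stromelysin-1, which cuts proteoglycans and activates other proMMPs, measured 0.02 and 0.05 TPM in the controls, against 0.17 and 0.22 TPM under the knockout label. MMP1, the interstitial collagenase, was at 0.61 and 0.42 TPM against 0.36 and 0.68 TPM, so its groups overlapped. MMP10, or stromelysin-2, overlapped as well, at 0.09 and 0.16 TPM against 0.14 and 0.12 TPM. The gelatinases were near 0, with MMP2 at 0.01 and 0.02 TPM against 0.03 and 0.04 TPM and MMP9 at 0.02 and 0.01 TPM against 0.11 and 0.01 TPM.

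The overexpression comparison asked which genes differed in the libraries labelled U11 overexpression. TIMP3 was at 7.48 and 7.27 TPM in the controls. It was at 0.13 and 0.01 TPM in line label 79, at 2.04 and 1.93 TPM in line label 86 and at 0.11 and 0.00 TPM in line label 87. All 6 overexpression libraries lay below both controls, and line label 86 stood between the controls and the other two line labels. Over the 6 libraries TIMP3 was down-regulated at P under 0.05 (limma, difference -2.48, standard error 0.49), but the adjusted P was 0.206. That fit counts the 2 libraries of a line label as separate. The unadjusted call of TIMP3 also held with the mean of each line label. Within library sets 2 and 3 the difference was -2.44 and -2.53.

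MMP3 was at 0.00 and 0.11 TPM in the controls, at 0.26 and 0.31 TPM in line label 79, at 0.42 and 0.67 TPM in line label 86 and at 1.11 and 1.30 TPM in line label 87. All 6 overexpression libraries were above both controls, and the values of the 3 line labels did not overlap. Over the 6 libraries the difference was 0.63 (standard error 0.26), which passed the unadjusted threshold of limma after the filter (adjusted P = 0.813) and without it (standard error 0.25, adjusted P = 0.806). Within library sets 2 and 3 the difference was 0.64 and 0.63. The call was lost with the mean of each line label, and it rested on single libraries, since leaving out control P3, control 4 or library 86-3 ended the call, and without either library of line label 87 the gene was under the filter.

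MMP3 was the 1 gene of the 10 called higher and TIMP3 the 1 gene called lower, beside 0.767% and 1.16% of all 15768 genes tested, and the call of MMP3 carries no weight as a count because of the filter. None of the 10 genes passed at an adjusted P under 0.05, which 0.165% of all genes tested did. In the same limma fit, MMP3, TIMP3 and MMP14, of the 7 genes tested, were under an unadjusted P of 0.05. The share of all genes under that limit alone was not computed, so this carries no weight as a count. No other tool was run.

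MMP1 was at 0.30 and 0.38 TPM in the controls, at 0.94 and 0.94 TPM in line label 79, at 0.43 and 0.51 TPM in line label 86 and at 1.00 and 1.16 TPM in line label 87. Line label 86 lay just above the controls, and line labels 79 and 87 were more than 2-fold above both. Over the 6 libraries the difference was 0.43 (standard error 0.20, limma, adjusted P = 0.851 after the filter and 0.806 without it), and it was 0.45 and 0.42 within library sets 2 and 3. MMP14 was at 110.0 and 101 TPM in the controls, at 155 and 140 TPM in line label 79, at 138 and 122 TPM in line label 86 and at 131 and 129 TPM in line label 87. All 6 libraries were above both controls, but the difference of 0.36 (standard error 0.10, limma, adjusted P = 0.464) was a 1.29-fold change. The groups did not overlap for MMP1, MMP3, MMP14 and TIMP3, and for 9.87% of all genes tested. MMP1 and MMP3 entered the test through high values in line label 87, so the number of members that did not overlap carries no weight.

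TIMP1 was at 292 and 311 TPM in the controls and between 293 and 325 TPM in the 6 overexpression libraries, with a median of 310 TPM. Its groups overlapped, and the difference was 0.03 (standard error 0.07, limma, adjusted P = 0.971). TIMP1 thus differed between the comparisons. The knockout minus overexpression difference, fitted on all 12 libraries and chosen after seeing the data, was 1.87 (standard error 0.10, limma, adjusted P = 8.38e-06). The same fit gave 0.15 (standard error 0.69, adjusted P = 0.937) for TIMP3, a difference with a wide standard error. The comparisons used different controls, and TIMP1 was at 174 and 175 TPM in those of the knockout comparison, below the controls of the overexpression comparison. The library set cannot be told apart from this difference between the controls, which was not tested. Measured U11 also differed between these controls, at 21.4 and 23.8 TPM in the knockout comparison and 0.03 and 0.62 TPM in the overexpression comparison. Whether the 2 comparisons shared a library type was not tested.

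TIMP2 was at 142 and 123 TPM in the controls, at 28.9 and 117 TPM in line label 79, at 174 and 169 TPM in line label 86 and at 37.5 and 36.7 TPM in line label 87. Line label 86 was above both controls and line label 87 below both, while the libraries of line label 79 differed 4.06-fold from each other. In the pair of libraries from line label 79, 31 of 11046 genes with a mean of at least 5 TPM (0.281%) differed at least as much as TIMP2. The other 5 pairs of like libraries differed in TIMP2 by 1.02-fold to 1.71-fold. Over the 6 libraries the difference was -0.87 (standard error 0.73, limma, adjusted P = 0.922), and within library sets 2 and 3 it was -1.29 and -0.45. TIMP2 was also far lower in all 4 libraries of the knockout comparison, at 17.3 to 29.5 TPM, a difference in which library set and comparison cannot be told apart.

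TIMP4 was at 0.67 and 1.24 TPM in the controls, at 1.24 and 1.53 TPM in line label 79, at 1.27 and 1.30 TPM in line label 86 and at 1.13 and 0.62 TPM in line label 87. The groups overlapped (difference 0.16, standard error 0.20, limma, adjusted P = 0.935). MMP10 was at 0.05 and 0.06 TPM in the controls, at 0.27 and 0.24 TPM in line label 79, at 0.06 and 0.21 TPM in line label 86 and at 0.15 and 0.29 TPM in line label 87. It was under the filter, and without the filter its difference was 0.19 (standard error 0.07, limma, adjusted P = 0.806), below the fold threshold. MMP2 was listed at 0 in all 6 overexpression libraries and in control P3, and at 0.01 TPM in control 4.

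**Figure D2:**
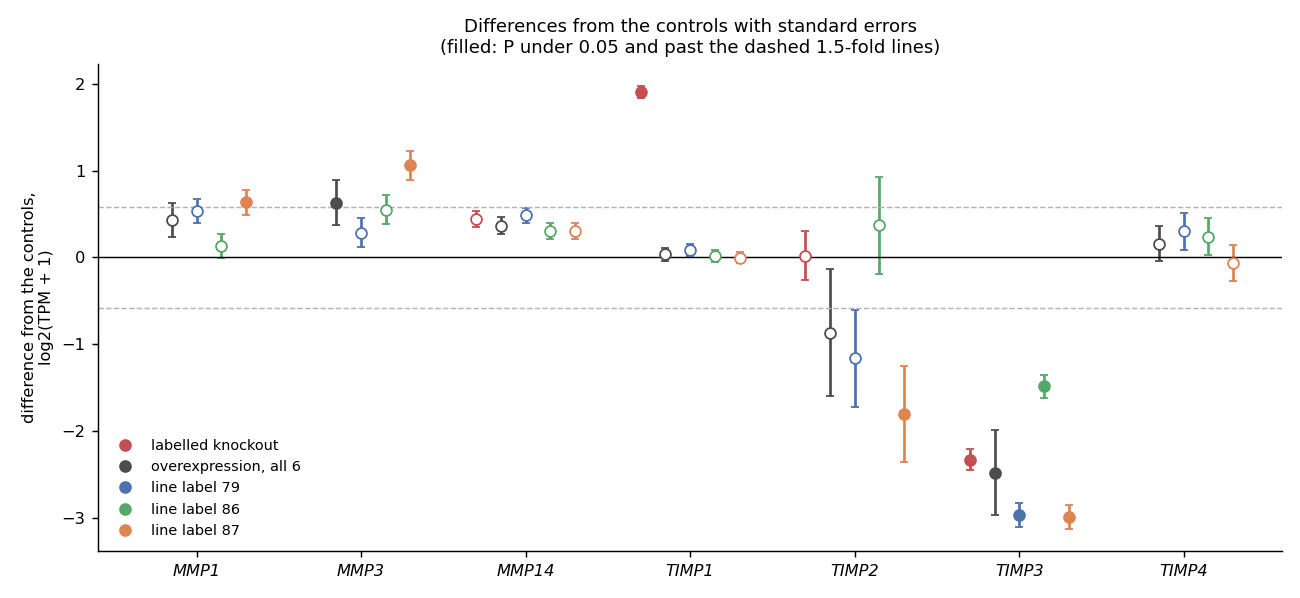
Difference from the controls in log2(TPM + 1) (vertical axis) of the 7 genes that passed the filter, with error bars of 1 standard error from limma; colours stand for the knockout label, all 6 overexpression libraries and each line label, and filled points passed P under 0.05 and a 1.5-fold change (dashed lines). TIMP1 passed under the knockout label alone, at 1.91, and TIMP3 passed in all 5 comparisons, from -1.49 in line label 86 to -2.99 in line label 87.

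Each line label was then compared with the 2 overexpression controls, which the 3 comparisons share. For line label 79, TIMP3 was the 1 gene of the 10 called (difference -2.97, standard error 0.14, limma, adjusted P = 0.000176), as were 7.95% of all genes tested. MMP14 had an adjusted P of 0.0239 by limma there, but its difference of 0.48 was a 1.40-fold change. MMP1 stood at 0.53 (standard error 0.14, adjusted P = 0.0699 by limma), a 1.45-fold change. For line label 86, TIMP3 was again the 1 gene called (difference -1.49, standard error 0.14, limma, adjusted P = 0.00626), as were 3.60% of all genes. MMP3 had a difference of 0.55 (standard error 0.17, adjusted P = 0.218 by limma), a 1.46-fold change.

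For line label 87, the line with the highest U11, TIMP3, TIMP2, MMP3 and MMP1 were called, as were 5.13% of all genes tested. MMP3 and MMP1 entered this test through the same libraries that it compares, so the number of members called is not read against that share. TIMP3 was down-regulated (difference -2.99, standard error 0.14, limma, adjusted P = 0.000318). TIMP2 was lower at the unadjusted threshold (difference -1.81, standard error 0.56, limma, adjusted P = 0.154). MMP3 differed by 1.06, with an adjusted P of 0.0263 in limma after the filter and 0.0211 without it (standard error 0.11). MMP1 differed by 0.63, with an adjusted P of 0.0732 in limma after the filter and 0.0549 without it (standard error 0.09). TIMP2 in line label 87 was 3.57-fold below the controls by the group means, and it lost its call without control P3, library 87-1 or library 87-3. Within library sets 2 and 3, TIMP2 differed by -1.89 and -1.72 in line label 87, and MMP3 by 1.08 and 1.05.

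Between the 3 line labels, 2 of the 7 genes tested differed at an adjusted P under 0.05, as did 16.0% of all genes tested (limma F test over the line labels). These were TIMP3 and MMP3. Since MMP3 passed the filter through line label 87 alone, the count is not read against that share. TIMP3 had an adjusted P of 0.00195. Its level in line label 86 exceeded that in line label 79 by 1.48 (standard error 0.14, limma, adjusted P = 0.00203) and also exceeded that in line label 87 (limma, adjusted P = 0.00269), while the difference between line labels 79 and 87 was 0.02 (standard error 0.14, adjusted P = 0.944 by limma). TIMP3 was highest in line label 86, whereas measured U11 was lowest in line label 79 and highest in line label 87. A link between the levels of U11 and TIMP3 was not tested.

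MMP3 had an adjusted P of 0.0485 between the line labels after the filter and of 0.0353 without it, both by limma. Its levels were in the order of line labels 79, 86 and 87, but line label 87 had to be high for the gene to pass the filter, and only the ends of this order differed past the threshold. The difference between line labels 87 and 79 was 0.78 (standard error 0.17, limma, adjusted P = 0.0330), whereas neighbours differed by 0.26 (adjusted P = 0.378) and 0.52 (adjusted P = 0.144) by the same test. The F test call of MMP3 was lost when any 1 of the 6 libraries from the controls and line labels 79 and 86 was left out, and without either library of line label 87 the gene was under the filter. TIMP2 (adjusted P = 0.0848) and MMP1 (adjusted P = 0.104) did not pass the F test of limma. MMP1 was lowest in line label 86, whereas TIMP2 and TIMP3 were highest there.

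Among the TIMPs, TIMP1 and TIMP2 carried nearly the whole summed TPM in each library. In the libraries labelled knockout, TIMP1 made up 96.0% and 97.0% of the TIMP sum, against 83.6% and 88.6% in their controls. In the overexpression comparison TIMP2 contributed 32.1% and 27.8% in the controls, 8.36% and 26.4% in line label 79, and 35.1% and 36.3% in line label 86. In line label 87 TIMP1 made up 88.7% and 88.8% of the sum. TIMP3 contributed 1.94% and 2.10% in the knockout controls and 1.69% and 1.64% in the overexpression controls, so its fall changed the sum little.

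The summed TPM of the 6 MMPs over that of the 4 TIMPs is given as a description without a test. It was 0.273 and 0.280 in the knockout controls and 0.117 and 0.107 in the libraries labelled knockout. In the overexpression comparison it was 0.250 and 0.229 in the controls, 0.453 and 0.319 in line label 79, 0.281 and 0.265 in line label 86, and 0.389 and 0.394 in line label 87. The ratio was below the controls under the knockout label, where TIMP1 was high, and above the controls in all 6 overexpression libraries. It concerns transcripts and says nothing of active enzyme.

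**Figure D3:**
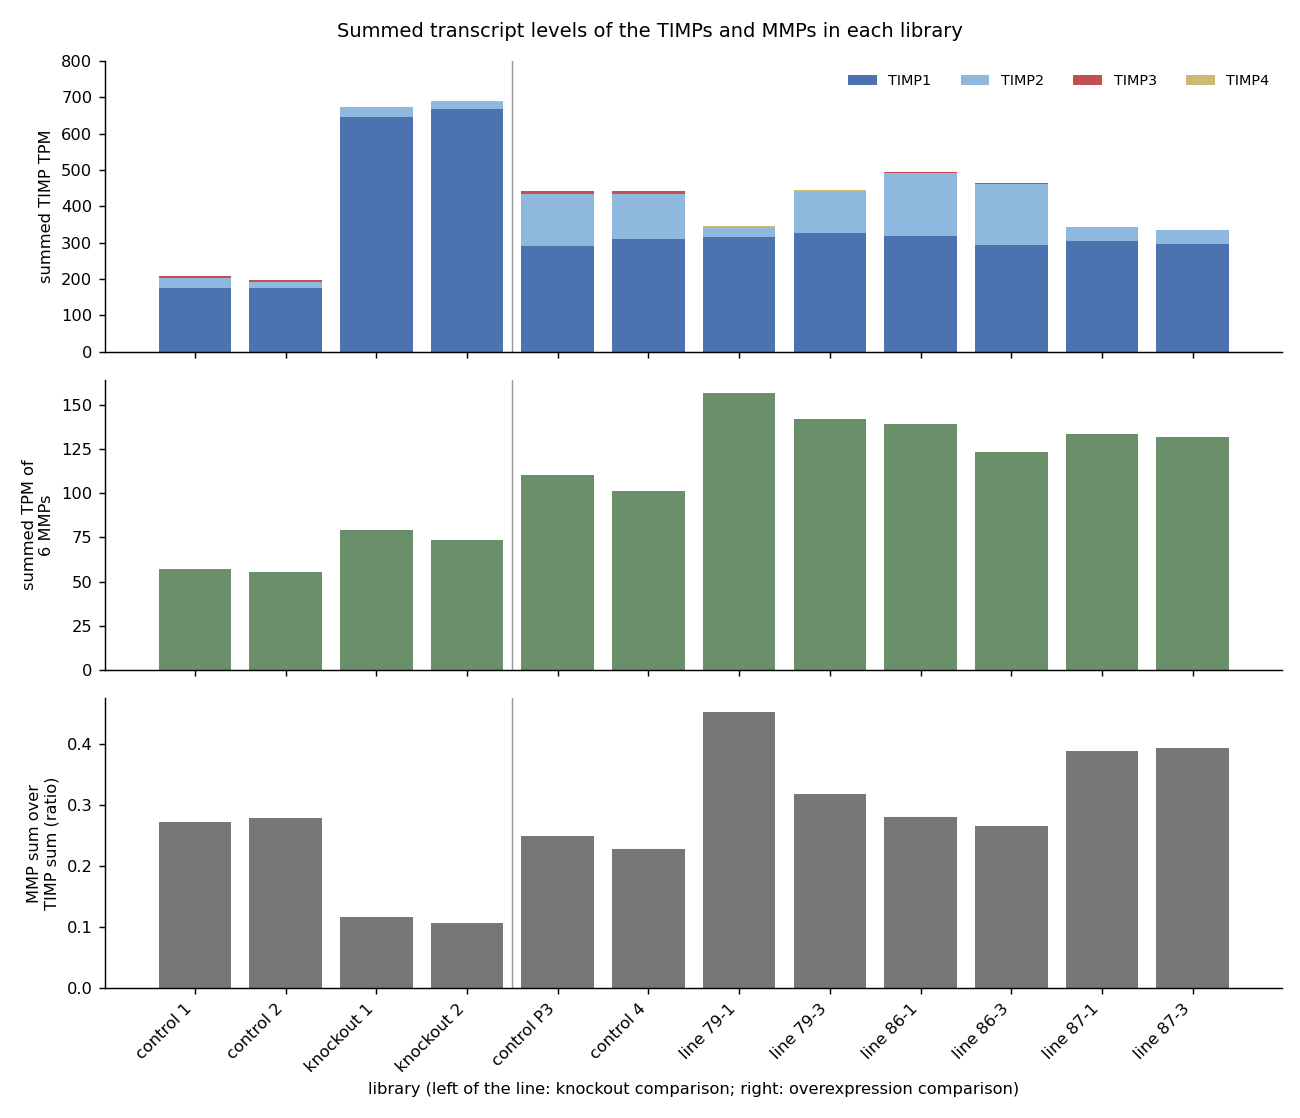
Summed TIMP TPM (top, stacked by gene), summed TPM of the 6 MMPs (middle) and their ratio (bottom) in the 12 libraries, as bars from 0, with the knockout comparison left of the vertical line. The ratio is 0.117 and 0.107 in the libraries labelled knockout and between 0.265 and 0.453 in the overexpression libraries.

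In the cluster on chromosome 11, MMP10, MMP1 and MMP3 were detected together with MMP13, a collagenase, which stood at 0.06 and 0.18 TPM in the overexpression controls and between 0.10 and 0.36 TPM in the overexpression libraries. Their neighbours MMP7, MMP20, MMP27 and MMP12 were listed at 0 in all 8 libraries of this comparison. In the knockout comparison MMP13 measured 0.42 and 0.88 TPM in the controls, against 0.08 and 0.09 TPM under the knockout label, a direction opposite to that of MMP3. MMP13 was under the filter in both comparisons.

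MMP9 followed the library set. It was listed at 0 in all 4 libraries of set 2 and was at 0.06 to 0.13 TPM in all 4 libraries of set 3, controls and line labels alike. MMP8, the neutrophil collagenase, showed the same split, at 0 in set 2 and at 0.06 to 0.10 TPM in set 3. The leukocyte genes PTPRC and CD3E also did so, with PTPRC at 0.00 to 0.01 TPM in set 2 and 0.27 to 0.50 TPM in set 3, and CD3E at 0.00 to 0.05 TPM in set 2 and 0.50 to 0.91 TPM in set 3. The fibroblast genes DCN and LUM went the other way, at 0.03 to 0.12 TPM and 0.10 to 0.28 TPM in set 2 and listed at 0 in set 3. Each set held all conditions of the comparison, and the part of these traces in the MMP9 values was not tested. Over the 5 leukocyte markers the summed level was 3.64 to 4.22 TPM in the controls and 4.17 to 8.08 TPM in the overexpression libraries, most of it CD68, and 1 of the 5 had a mean of at least 1 TPM.

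**Figure D4:**
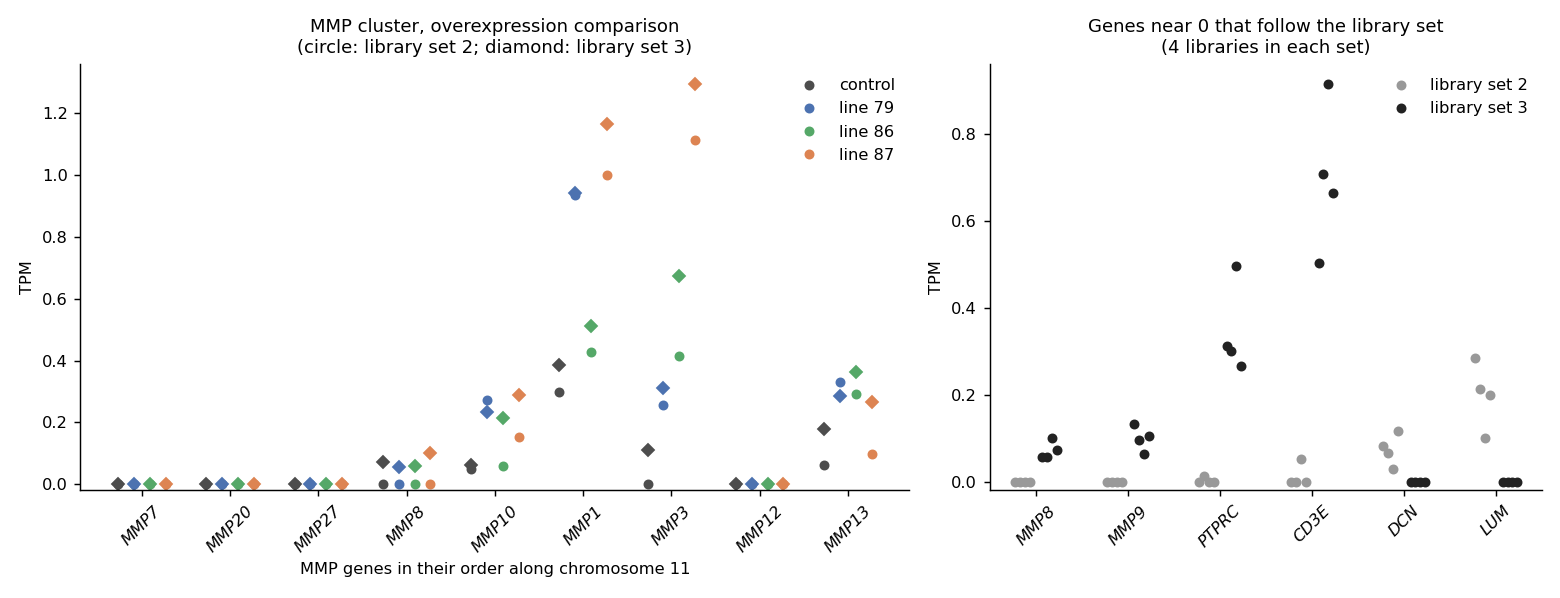
Left, TPM of the 9 MMP genes in their order along chromosome 11 in the 8 libraries of the overexpression comparison, coloured by control or line label, with circles for library set 2 and diamonds for set 3. Right, TPM of 6 genes with values near 0, where MMP8, MMP9, PTPRC and CD3E are present in set 3 and DCN and LUM in set 2.

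Of 17 other MMP genes, 12 were under 1 TPM in all 12 libraries. In the knockout comparison 4 were tested, of which MMP16 and MMP17, both membrane-bound, were called at the unadjusted threshold, 1 higher and 1 lower, beside 8.61% and 3.15% of all genes. MMP16 measured 2.32 and 3.70 TPM in the controls, against 6.96 and 6.45 TPM under the knockout label (difference 0.96, standard error 0.20, limma, adjusted P = 0.0570). MMP17 was at 3.97 and 3.73 TPM against 1.92 and 2.52 TPM (difference -0.60, standard error 0.15, limma, adjusted P = 0.0782). Median differences were -0.07 for these 4 genes and 0.11 for all genes tested. In the overexpression comparison none of 5 tested was called (median -0.01, against -0.02 for all genes), and 3 of the 5, namely MMP16, MMP17 and MMP24, differed between the line labels, beside 16.0% of all genes. MMP24 passed the filter through line label 86 alone, so this count is not read against that share.

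Of 28 ADAM and ADAMTS genes, relatives of the MMPs that TIMP3 also inhibits in part, 13 were tested in the knockout comparison, with 2 called higher and 2 lower, beside 8.61% and 3.15% of all genes tested (median 0.14). ADAM19 measured 19.6 and 22.2 TPM in the controls, against 54.6 and 47.1 TPM under the knockout label, and was up-regulated with a difference of 1.24 (standard error 0.13, limma, adjusted P = 0.0171). ADAM8 was lower (difference -0.76, adjusted P = 0.0468 by limma), and ADAMTS7 (0.64, adjusted P = 0.0640 by limma) and ADAMTS12 (-0.59, adjusted P = 0.0792 by limma) passed the unadjusted threshold. None of 14 tested was called in the overexpression comparison (median -0.10), and 7 of the 14 differed between the line labels, beside 16.0% of all genes.

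Of 13 activators and partners of the MMPs, 10 were tested in the knockout comparison. Of these, 5 were called higher and 1 lower, beside 8.61% and 3.15% of all genes tested, and all 6 passed the adjusted P, beside 6.85% of all genes, with a median of 0.59 against 0.11 for all genes. PLAU, the urokinase that makes plasmin, measured 92.4 and 85.7 TPM in the controls, against 39.6 and 36.1 TPM under the knockout label (difference -1.21, standard error 0.10, limma, adjusted P = 0.0113). Its receptor PLAUR went from 69.3 and 66.0 TPM to 125 and 125 TPM (difference 0.87, standard error 0.08, limma, adjusted P = 0.0152). LRP1, which clears MMP and TIMP complexes from the cell surface, was up-regulated (difference 1.21, adjusted P = 0.0352 by limma), as was the proprotein convertase PCSK6 (0.76, adjusted P = 0.0348 by limma). None of the 10 tested was called in the overexpression comparison (median -0.16), and 4 of them differed between the line labels, beside 16.0% of all genes. The other 4 tested in the knockout comparison, PLAT, BSG, RECK and CD44, were not called.

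Of 14 genes for factors that bind MMP promoters, the AP-1, ETS, RUNX and NF-kappa B families, all 14 were tested in both comparisons. JUNB measured 16.1 and 15.4 TPM in the controls, against 39.9 and 39.1 TPM under the knockout label (difference 1.27, standard error 0.10, limma, adjusted P = 0.00945). The median of the list was 0.09, and 8.61% of all genes were called higher. FOS was also called higher (0.69, adjusted P = 0.0975 by limma), at 0.77 to 0.95 TPM in the controls and 1.56 to 2.50 TPM under the knockout label. FOS passed the filter through the libraries labelled knockout alone, so its call is not read against that share. In the overexpression comparison ETS2 alone was called, beside 0.767% of all genes called higher, at 41.4 and 44.6 TPM in the controls, 115 and 129 TPM in line label 79, 83.8 and 81.7 TPM in line label 86, and 48.7 and 49.8 TPM in line label 87 (difference 0.87, standard error 0.36, limma, adjusted P = 0.824). ETS2 was 1 of 6 of these 14 genes that differed between the line labels, beside 16.0% of all genes.

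The genes whose log2(TPM + 1) was most like that of a member over the 8 libraries of the overexpression comparison were ranked among 11164 genes by Pearson's r, as a description. The libraries of a line label share their cells, so these 8 points are not independent. For MMP1 they were TFPI2 (r = 0.99, 90.4 to 205 TPM), a secreted protease inhibitor, CERS6 (r = 0.98) and SV2A (r = 0.98). For MMP3 they were USP25 (r = 0.99), FAM107B (r = 0.98) and FGF5 (r = 0.97). For TIMP1, which hardly varied in this comparison, they were RSBN1 (r = 0.91), snoR1 (r = 0.91) and UBE2B (r = 0.90).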

How the data were processed

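RNA-seq libraries of T24 cells were compared by label, 2 labelled U11 knockout with 2 controls and 6 labelled U11 overexpression with 2 controls. The authors aligned reads to hg38 with Hisat2 and ran Stringtie, and deposited for each gene the TPM, the FPKM and the coverage (a signal, mean reads per base). Read counts were not used here, so the DESeq2 test that the authors name was replaced by limma (version 3.58.1, R 4.3.3, prior variance following the mean level) on log2(TPM + 1), fitted to all genes with at least 1 TPM in 2 libraries of a comparison. Genes were called at P under 0.05 with a change of 1.5-fold or more, the authors' thresholds. P was adjusted by the Benjamini-Hochberg method over all genes tested. Depth was read from the ratio of coverage to FPKM, and no counting interval was computed. The members and the gene lists were chosen with earlier results of these data known. Named genes were all members, at most 4 called genes with the largest change per list and comparison, overlapping genes, and the 3 genes most like MMP1, MMP3 and TIMP1 (mean of at least 5 TPM). Pseudocounts, units, scalings, filters, blocks and left-out libraries were varied one at a time. The fit was tested on simulated data. The labels call the RNA polyA and the study's methods name ribosomal RNA depletion, a discrepancy that bears on U11, which has no polyA tail.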

Additional observations from a re-analysis of the deposited data

Results flagged for a closer look

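TIMP3 and MMP3 were singled out because their levels differed between the line labels of the overexpression libraries under the same comparison with the controls. The F test of limma over the 3 line labels gave an adjusted P of 0.00195 for TIMP3, whose mean level was 0.07 TPM in line label 79, 1.99 TPM in line label 86 and 0.05 TPM in line label 87. It gave an adjusted P of 0.0485 for MMP3, whose mean level was 0.28, 0.54 and 1.20 TPM in the same order. MMP3 passed the filter through line label 87 alone. The adjusted P without the filter was 0.0353, and the call was lost in each of the 6 fits that left out 1 library and still tested the gene. For the 9 genes with values above 0 in the overexpression libraries, no library stood far enough from the others to be singled out by the gap to its neighbour. MMP2, listed at 0 in all 6, could not be examined in this way.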

How the results depend on the processing

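Under the knockout label, TIMP1 was called higher in all 9 alternative settings and 4 leave-one-out fits. TIMP3 was called lower in the 8 settings and 2 leave-one-out fits that tested it. Their adjusted P ranged from 5.85e-07 to 0.133 and from 0.00230 to 0.133. Leaving out control 1 or 2 kept TIMP3 out of the filter, so 0 to 1 genes were called lower, and the filter of 1 TPM in every library left 0. The knockout and control libraries share the replicate numbers 1 and 2, with a correlation of 0.0244 of their deviations over 14356 genes, so the numbers did not pair them. With the number as a replicate block, 1 gene was called higher and 1 lower, and calls over all genes were 1244 higher and 462 lower. No member reversed a call under any alternative. Over the overexpression libraries, 2 genes were called higher with a pseudocount of 0.1 (MMP1 and MMP3) and 0 with FPKM, the mean of each line label, the filter of 1 TPM in every library or adjusted P, with 0 to 1 when a library was left out. Of the lower calls there, the stricter filter and adjusted P each left 0. For line label 79, higher calls became 2 with a pseudocount of 0.1 and 1 with quantile normalization, lower calls became 0 with the stricter filter, and without a library they numbered 1 to 2 (TIMP2 joined without library 79-3). For line label 86, a pseudocount of 0.1 gave 1 higher call and the stricter filter 0 lower calls, with 0 to 1 higher calls without a library. For line label 87, higher calls fell to 0 with FPKM or the stricter filter and to 1 with adjusted P, and lower calls to 1 with either, at 0 to 2 and 1 to 2 without a library. Between line labels, 1 gene differed with a pseudocount of 0.1, 3 with no mean-variance trend (MMP1 joined), 0 with the stricter filter and 4 without adjustment, and 1 to 2 without a library (MMP3 was lost each time, and TIMP2 joined without library 79-1 or 79-3). A pseudocount on the FPKM scale weighs more because FPKM values were lower, and the stricter filter tested none of the lost genes. The other causes were not tested. No depth limit could be computed for values near 0.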
